A study of Mus musculus with 28 samples.

Results

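Messenger RNA of 9 genes of the perineuronal net was followed over the 8 groups of a ribosome-tagging study of mouse hippocampal CA1, with Acan first. The members are Acan, Bcan, Ncan, Vcan, Tnr, Tnc, Hapln1, Hapln4 and Ptprz1, each found by its exact symbol in the deposited tables, and they are 9 of 14711 genes there. All 9 were listed in all 6 tables, and all 9 passed the filter on low counts in every comparison.

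The mice were C57BL/6, 3 to 4 weeks old, and carried 1 copy of a Cre driver (PV-Cre/+ or CaMK2a-Cre/+) and 1 copy of LSL-Rpl22-HA, a conditional allele of the ribosomal protein Rpl22. Cre removes a stop cassette, so that the HA-tagged ribosomal protein is made in cells that express, or have expressed, PV-Cre (parvalbumin interneurons) or CaMK2a-Cre (mainly excitatory neurons). Mice of each line were injected with kainic acid (KA), a glutamate receptor agonist that provokes seizures, or with PBS as vehicle. The labels place the dissection of CA1 at 6 h after either injection. Column headers of the count tables mark the PBS libraries as a start point instead, and which of the readings holds for PBS is not known. An anti-HA immunoprecipitation (IP) recovered tagged ribosomes with their RNA, and a part of the same lysate taken before the IP served as input. Each of the 4 PV groups (KA IP, PBS IP, KA input and PBS input) had 4 libraries, each made with 2.5 ng of RNA from a pool of 9 or 10 mice. Each of the matching 4 CaMK2a groups had 3 libraries, each made with 20 ng of RNA from a pool of 4 mice. Mouse number, RNA amount and Cre line changed together, so they cannot be told apart in a comparison between the lines.

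Perineuronal nets are lattices of extracellular matrix that wrap the cell body and proximal dendrites of some neurons, most densely those of parvalbumin interneurons, and in the hippocampus also pyramidal cells of CA2. Their backbone is hyaluronan, to which the lecticans (the chondroitin sulfate proteoglycans aggrecan, brevican, neurocan and versican) bind with the help of link proteins, and tenascins tie the lecticans together. Nets mature late in postnatal development, are linked to the closing of critical periods, and are known to be loosened after seizures.

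The lecticans are encoded by Acan (aggrecan, gene ID 11595, chromosome 7, 79053202 to 79115099, plus strand, 18 exons), Bcan (brevican, gene ID 12032, chromosome 3, 87987531 to 88000894, minus strand, 16 exons), Ncan (neurocan, gene ID 13004, chromosome 8, 70093082 to 70120866, minus strand, 15 exons) and Vcan (versican, gene ID 13003, chromosome 13, 89655308 to 89742512, minus strand, 16 exons). The link proteins are Hapln1 (gene ID 12950, chromosome 13, 89540533 to 89611832, plus strand, 5 exons) and Hapln4 (gene ID 330790, chromosome 8, 70083529 to 70090862, plus strand, 5 exons). The tenascins are Tnr (tenascin-R, gene ID 21960, chromosome 1, 159523739 to 159931729, plus strand, 25 exons) and Tnc (tenascin-C, gene ID 21923, chromosome 4, 63959785 to 64047015, minus strand, 27 exons). Ptprz1 (gene ID 19283, chromosome 6, 22875457 to 23052916, plus strand, 30 exons) encodes a receptor phosphatase whose secreted form, phosphacan, is itself a chondroitin sulfate proteoglycan. Positions are printed as the authors' tables list them, for mm10 (GRCm38). Each lectican gene lay beside a link protein gene, with no other gene of the tables between them. The gap was 1927 bases from Acan to Hapln3, 2219 bases from Ncan to Hapln4, 20.9 kb from Bcan to Hapln2 and 43.5 kb from Vcan to Hapln1. Library strandedness is not stated in the sources used here. Tnr shares 443 exonic bases and Tnc 176 exonic bases with a transcript on the opposite strand in GENCODE M21, where reads cannot be assigned to 1 strand, and the other 7 members share none.

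Acan and Tnc were the members with the largest KA effects, so their upstream sequences are shown here, from RefSeq promoter windows on GRCm38.p6, 5′ to 3′ along the strand of the gene. The Acan sequence is the 226 bases before the deposited gene start (chr7:79052976-79053201, plus strand), with its E-box match CAGCTG in capitals. The Tnc sequence is the 250 bases before the deposited gene start (chr4:64047016-64047265, minus strand), with its TATAAA match in capitals.
Acan: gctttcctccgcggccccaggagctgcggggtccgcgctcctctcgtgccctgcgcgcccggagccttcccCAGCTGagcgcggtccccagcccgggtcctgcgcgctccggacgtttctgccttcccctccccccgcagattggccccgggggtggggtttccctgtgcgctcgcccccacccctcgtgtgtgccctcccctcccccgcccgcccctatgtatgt
Tnc: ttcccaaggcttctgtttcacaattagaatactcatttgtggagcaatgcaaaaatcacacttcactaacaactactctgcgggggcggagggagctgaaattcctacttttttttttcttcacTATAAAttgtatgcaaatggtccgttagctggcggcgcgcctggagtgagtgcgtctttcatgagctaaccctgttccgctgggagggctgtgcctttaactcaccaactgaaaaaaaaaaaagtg
The windows differed in composition: 74.4% of the 250 bases before the RefSeq start were G or C at Acan and 44.8% at Tnc. In the windows of the 8 members with an entry, both strands were searched for the AP-1 site TGACTCA. They were also searched for the cAMP response element TGACGTCA and for its core TGACG, which the full element contains. The other motifs were an E-box read as CAGCTG, a further E-box variant read as CACGTG, the TATA box read as TATAAA, and a CArG core. CAGCTG was present at position -179 from the RefSeq start of Acan and at -58 in Ncan, and 13.0% of the 32851 promoters listed hold it. TATAAA was present at -126 in Tnc and at -11 in Ncan, and 12.4% of promoters hold it. The other 5 motifs were in none of the 8 members' windows. They are in 4.46% (AP-1), 1.55% (cAMP response element), 17.8% (its core), 6.02% (CACGTG) and 0.0609% (CArG core) of promoters.

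Depth was 6.06 to 15.8 M counts in genes per library. Levels below are CPM, read counts scaled to library size, on 1 TMM scale over all 28 libraries, given as mean ± SD with n = 4 in PV groups and n = 3 in CaMK2a groups. Changes are log2 fold changes ± SE from edgeR quasi-likelihood tests, with p-values adjusted by Benjamini-Hochberg over all genes tested, and a gene is called at an adjusted p under 0.05. In the CaMK2a IP after PBS, Acan had at most 5 counts and Tnc at most 11 in a library. Tests of that group against 1 other group kept both genes through the counts of the other group. The IPs were checked against marker genes. After PBS all 7 measured PV interneuron markers were higher in the PV IP than in its input (Pvalb by 3.71 ± 0.32), and 6 of 7 CA1 pyramidal markers were higher in the CaMK2a IP than in its input. Markers of other cells were not removed completely. After PBS the summed level of 7 astrocyte markers in the IP was 56.3% ± 3.54 of the input of the same pool in the PV line and 20.1% ± 4.4 in the CaMK2a line. In the PV line, lists of cells other than interneurons ran from 35.8% ± 6.23 (microglia) to 85.1% ± 9.68 (dentate granule). Oligodendrocyte markers stood at 79.7% ± 5.52 there. PV pool 4 differed from PV pools 1 to 3 over all genes in every PV group, so its spread enters the PV tests. It also held the outlying values of Bcan and Ptprz1 given below. Results whose call changes without it are given with both values. Each library is a pool of mice, and since fewer cells of a type and less RNA per cell give the same counts, these cannot be told apart in any value here.

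After PBS, Acan was enriched in the PV IP and depleted from the CaMK2a IP. It had 6.68, 10.4, 14.1 and 6.12 CPM in the 4 PV IP libraries, against 3.26, 4.01, 5.13 and 2.85 CPM in the 4 PV inputs, and the groups did not overlap. In the CaMK2a IP after PBS it had 0.321, 0.515 and 0.0973 CPM, which are 5, 4 and 1 counts, against 2.66, 6.34 and 5.82 CPM in the CaMK2a inputs. All 3 CaMK2a IP libraries lay below every other library of the study. The IP exceeded the input by 1.32 ± 0.40 on the log2 scale in the PV line (edgeR adjusted p = 0.035) and was below it by -3.96 ± 0.52 in the CaMK2a line (adjusted p = 4.8e-06). The enrichment differed between the lines by 5.23 ± 0.71 (PV minus CaMK2a, adjusted p = 3.6e-05). The PV enrichment alone lost its call when any 1 of 6 libraries was left out: each of the 4 PBS inputs and PBS IP replicates 2 and 3 (adjusted p = 0.051 to 0.1, with values of 1.06 to 1.49). Those fits treat IP and input as independent libraries, although IP and input of 1 pool share a lysate. Within each PV pool the IP held 205 to 275% of its own input. The difference between lines kept its call in all 22 alternatives.

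After KA, Acan was high in every fraction. It had 24.9, 16.7, 49.6 and 47.7 CPM in the PV IP and 32.7, 29.7, 37.5 and 66.7 CPM in the PV inputs. In the CaMK2a line it had 16.7, 16.1 and 33.8 CPM in the IP and 124, 119 and 160 CPM in the inputs. Every KA library lay above every PBS library of its own line and fraction. The rise in the PV IP was 1.88 ± 0.40 (34.7 ± 16.4 against 9.33 ± 3.7 CPM, adjusted p = 0.01), and in the PV input 3.42 ± 0.31 (41.6 ± 17 against 3.81 ± 1 CPM, adjusted p = 2.5e-05). The rise in the CaMK2a IP was 6.17 ± 0.48 (22.2 ± 10.1 against 0.311 ± 0.209 CPM, adjusted p = 1.6e-05), and in the CaMK2a input 4.80 ± 0.22 (134 ± 22.4 against 4.94 ± 1.99 CPM, adjusted p = 1.8e-11). With PV replicates 1 to 3 only, the rise in the PV IP was 1.53 and no longer called (adjusted p = 0.06).

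**Figure D1:**
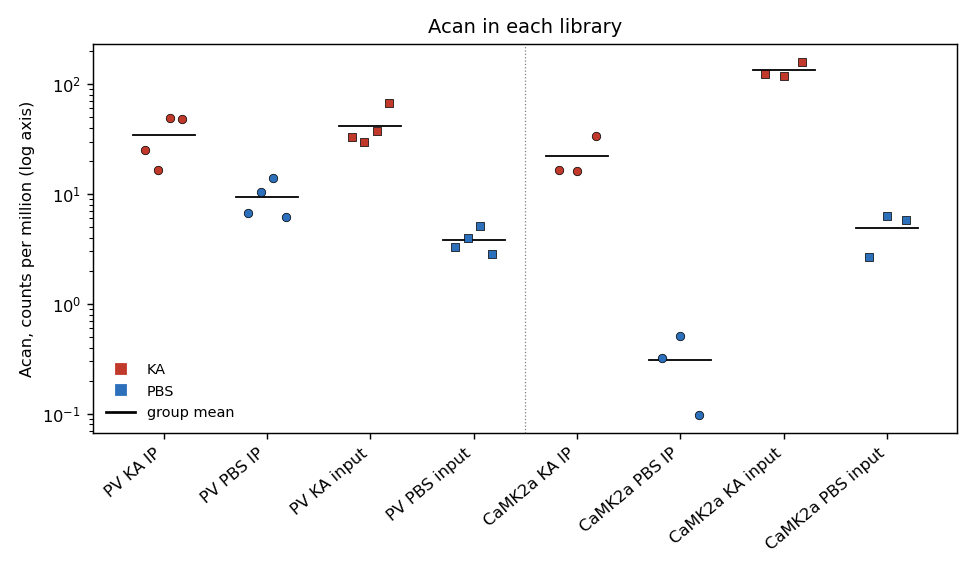
Acan in every library, in CPM on a log axis, with circles for IP, squares for input, red for KA, blue for PBS and black lines for group means. The CaMK2a IP after PBS lies lowest, at 0.0973 to 0.515 CPM, and the CaMK2a input after KA highest, at 119 to 160 CPM.

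Ordered by mean level, the 8 groups ran from the CaMK2a KA input (134 CPM) through the PV KA input (41.6), the PV KA IP (34.7), the CaMK2a KA IP (22.2), the PV PBS IP (9.33), the CaMK2a PBS input (4.94) and the PV PBS input (3.81) to the CaMK2a PBS IP (0.311). Neighbours whose libraries overlapped were the PV KA input and the PV KA IP, the PV KA IP and the CaMK2a KA IP, the PV PBS IP and the CaMK2a PBS input, and the CaMK2a and PV PBS inputs. The other 3 steps in the order had no overlap.

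The KA effect on Acan was smaller in the PV IP than in the CaMK2a IP, by -4.29 ± 0.73 on the log2 scale (adjusted p = 0.018). This was the only member called in that comparison, in which 0.0934% of 11781 genes were called, 11 genes in all. The PBS level it is measured from is very low in the CaMK2a IP. The summed counts there were 10, so the KA to PBS ratio of summed CPM was 76.1 with a 95% exact interval of 41.1 to 160, against 3.91 (3.53 to 4.34) in the PV IP, intervals that cover counting error only. The call was lost when any 1 of 4 libraries was left out, namely each CaMK2a PBS IP library and CaMK2a KA IP replicate 3 (adjusted p = 0.066 to 0.13), while the difference stayed between -4.65 and -3.86 over all 14 libraries left out in turn. Between the inputs of the lines, a comparison added after the values were seen, the KA effect differed by -1.36 ± 0.45 (adjusted p = 1). There edgeR called 0 of 11816 genes (0%), Acan having an unadjusted p = 0.0081, and DESeq2 called 4.

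The level of Acan in the IP was also set against the input of the same pool. After KA the PV IP held 84.1% ± 33.3 of the input level of its pool (56.3 to 132%), against 238% ± 33.8 after PBS (205 to 275%), and the groups of pools did not overlap. IP and input after KA did not differ beyond their spread (-0.21 ± 0.36, adjusted p = 0.77). The KA effect in the PV IP minus that in the PV input was -1.51 ± 0.52, with an unadjusted p = 0.0089 and an adjusted p = 1, so it was not called. Of 11862 genes, 0.0253% were called there. Neither this fit nor that of IP against input holds a term for the shared pool. In the CaMK2a line, the IP held 16% ± 4.4 of the input after KA (13.5 to 21.1%) and 7.28% ± 5.24 after PBS (1.67 to 12.1%). The IP stayed below the input after KA by -2.61 ± 0.26 (adjusted p = 1.6e-05), and the KA effect in IP minus input was 1.34 ± 0.74 (adjusted p = 0.66), in a comparison where 0.103% of 11623 genes were called.

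Several marker lists of other cells stood at similar percentages of the input in the CaMK2a IP. After KA, the summed IP level as a percentage of input in the CaMK2a line was 17.5% ± 6.29 for 6 general interneuron markers, 20.8% ± 7.2 for 7 astrocyte markers, 11.2% ± 5.79 for 6 oligodendrocyte precursor markers and 19.2% ± 9.48 for 5 oligodendrocyte markers. It was 115% ± 13.1 for 7 CA1 pyramidal markers, 99.5% ± 10.7 for 8 markers of other interneuron classes and 49.9% ± 3.56 for 7 PV interneuron markers. A sum follows its most abundant genes, so it does not give the share of a cell type kept. Among the other interneuron markers, the enrichment after PBS in PV minus CaMK2a was called lower for Cck. It was called higher for Sst, Vip, Npy, Reln and Htr3a, and not called for Calb2 and Cnr1. After PBS the first 4 lists stood at 13.8% ± 4.19, 20.1% ± 4.4, 12% ± 3.97 and 20.6% ± 6.88. The remaining lists after KA in the CaMK2a line were CA2 pyramidal at 94.7% ± 5.06 and dentate granule at 106% ± 22.4. Microglia stood at 10.8% ± 5.02 and endothelial and mural cells at 27.5% ± 5.63. In CPM, the general interneuron sum in the CaMK2a IP was 165 to 344 after KA and 124 to 208 after PBS. The PV interneuron sum there was 228 to 272 and 235 to 254 CPM, of which Pvalb had 1.54 ± 0.617 and 3.28 ± 0.527 CPM. In the PV IP after KA, the percentages were 51.5% ± 11.3 for astrocyte and 66.7% ± 15.7 for CA1 pyramidal markers. They were 73% ± 12.2 for oligodendrocyte, 80.5% ± 16.5 for dentate granule and 32.2% ± 7.54 for microglia markers. The part of RNA from such other cells in the Acan rise of either IP was not tested.

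**Figure D2:**
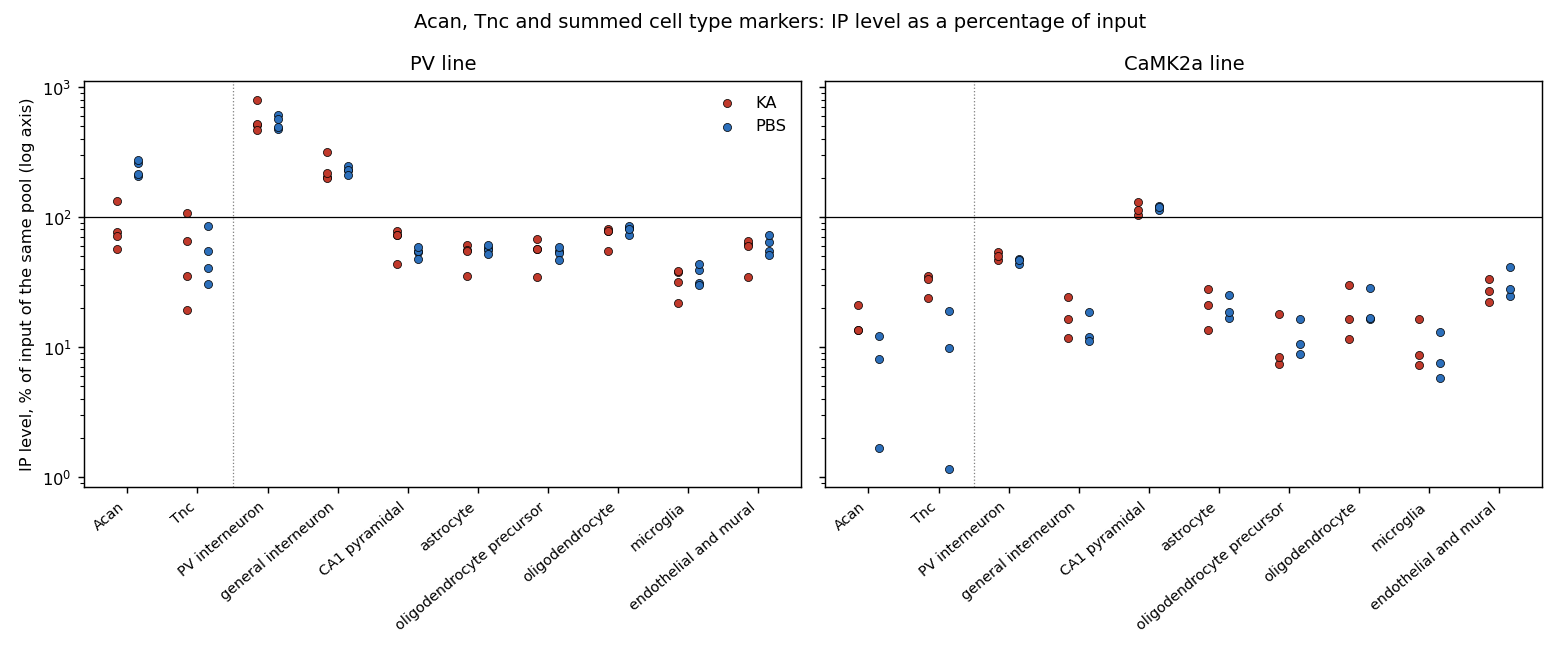
IP level as a percentage of the input of the same pool, on a log axis, for Acan, Tnc and the summed markers of 8 cell types, with 1 point per pool, red for KA and blue for PBS, and a line at equal level. In the PV line Acan lies at 205 to 275% after PBS and at 56.3 to 132% after KA, and in the CaMK2a line it lies among the general interneuron and glial sums after KA, at 13.5 to 21.1%.

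Among the other lecticans, Ncan rose modestly and Bcan did not rise. Ncan is the most abundant lectican of the young brain. It had 932, 797, 1030 and 510 CPM in the PV IP after KA against 580, 622, 591 and 527 CPM after PBS, and replicate 4 was the KA library that lay below all 4 PBS libraries, while the other 3 lay above them. Its change in the PV IP was 0.47 ± 0.20 (adjusted p = 0.25), or 0.60 (adjusted p = 0.004) with PV replicates 1 to 3 only. In the PV input Ncan rose by 0.49 ± 0.11 (1330 ± 55.2 against 927 ± 61.9 CPM, adjusted p = 0.011), a call lost without PV PBS input replicate 2 (0.47, adjusted p = 0.055). It rose by 0.46 ± 0.11 in the CaMK2a IP (815 ± 129 against 596 ± 16 CPM, adjusted p = 0.0085) and by 0.44 ± 0.09 in the CaMK2a input (1188 ± 59.3 against 879 ± 22.1 CPM, adjusted p = 0.001). The CaMK2a IP call was lost without CaMK2a PBS IP replicate 1 (0.43, adjusted p = 0.0501). Relative to input, Ncan was lower in both IPs, after PBS by -0.64 ± 0.12 in the PV line (adjusted p = 0.002) and by -0.54 ± 0.05 in the CaMK2a line (adjusted p = 1.5e-07), and the lines did not differ in this beyond their spread (-0.15 ± 0.14, adjusted p = 0.44). After KA it was lower in the PV IP by -0.65 ± 0.20 (adjusted p = 0.049), a call lost without any 1 of PV KA input replicates 1 to 3 or PV KA IP replicates 1 and 2 (-0.72 to -0.63, adjusted p = 0.068 to 0.13).

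Bcan, which encodes a lectican found in nets and around synapses and made by glia as well as neurons, fell in the CaMK2a IP. It had 21.4, 18.1 and 22 CPM there after KA, against 30.3, 35.1 and 32.7 CPM after PBS (-0.66 ± 0.14, adjusted p = 0.0044), with no overlap. In the CaMK2a input it had 139 ± 10.3 CPM after KA and 137 ± 14.1 CPM after PBS (0.03 ± 0.11, adjusted p = 0.86). The fall in the IP minus the change in the input was -0.73 ± 0.17 (adjusted p = 0.15), and with the pool as a block, since IP and input share a lysate, it was -0.74 and called (adjusted p = 0.033). In the PV line, Bcan showed no called KA effect (-0.14 ± 0.26 in the IP, adjusted p = 0.85, and -0.06 ± 0.29 in the input, adjusted p = 0.94). PV replicate 4 held 141 and 137 CPM in the KA and PBS inputs, against 64.8 to 75.1 and 69 to 74.4 CPM in the other 3 pools of each group. After PBS, Bcan was lower in the CaMK2a IP than in its input by -2.05 ± 0.09 (adjusted p = 1.2e-11). In the PV line the IP was -0.54 ± 0.27 relative to the input (adjusted p = 0.19, and -0.53 with adjusted p = 0.012 with the pool as a block). After KA it was -0.62 ± 0.28 there (adjusted p = 0.18, and -0.58 with adjusted p = 0.025 with the block).

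Vcan encodes versican, a lectican prominent in early development and known from white matter and oligodendrocyte precursors. In the CaMK2a IP it had 10.1, 5.55 and 7.41 CPM after KA against 4.76, 2.83 and 3.6 CPM after PBS (1.02 ± 0.31, adjusted p = 0.027). This call was lost without any 1 of 4 libraries, CaMK2a KA IP replicates 1 and 3 and PBS IP replicates 2 and 3 (0.77 to 1.03, adjusted p = 0.072 to 0.09). The summed oligodendrocyte precursor markers in the CaMK2a IP were 38.7 to 109 CPM after KA and 44.7 to 82.7 CPM after PBS, and their part in the Vcan change was not tested. In the other 3 fractions Vcan was not called, at 0.35 ± 0.34 in the PV IP (adjusted p = 0.67), 0.42 ± 0.19 in the PV input (adjusted p = 0.18) and 0.23 ± 0.16 in the CaMK2a input (adjusted p = 0.29). With the replicate number as a block the PV input change was 0.44 and called (adjusted p = 0.0087). After PBS the IP was below the input by -1.06 ± 0.23 in the PV line (adjusted p = 0.0048) and by -2.69 ± 0.20 in the CaMK2a line (adjusted p = 3.7e-09). After KA it was below by -1.12 ± 0.30 in the PV line (adjusted p = 0.029), a call lost without any 1 of PV KA input replicates 1 to 3 or PV KA IP replicates 2 and 4 (-1.14 to -0.92, adjusted p = 0.052 to 0.1), and by -1.98 ± 0.24 in the CaMK2a line (adjusted p = 5.3e-05).

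Both link protein genes were enriched in the PV IP. Hapln1 fixes lecticans to hyaluronan. It had 87.8, 80.7, 93.8 and 113 CPM in the PV IP after KA and 164, 158, 142 and 132 CPM after PBS, against 46.2, 48.1, 40.2 and 38.2 CPM and 87.3, 79, 73.3 and 55.7 CPM in the PV inputs. Hapln1 was lower after KA in every PV library than in any PBS library of the same fraction, and higher in every IP library than in any input library of the same treatment. The IP exceeded the input by 1.17 ± 0.20 after KA (adjusted p = 0.0018) and by 1.05 ± 0.16 after PBS (adjusted p = 5.0e-04). In the CaMK2a IP, Hapln1 had 9.79, 3 and 4.62 CPM after KA and 10, 18 and 10.4 CPM after PBS, against inputs of 31.5, 41.2 and 28.4 CPM and 54, 61.8 and 63.4 CPM. The enrichment after PBS was larger in the PV than in the CaMK2a line by 3.21 ± 0.28 (adjusted p = 3.0e-07). KA lowered Hapln1 by -0.69 ± 0.18 in the PV IP (adjusted p = 0.04), by -0.80 ± 0.17 in the PV input (adjusted p = 0.0081) and by -0.82 ± 0.14 in the CaMK2a input (adjusted p = 2.1e-04). In the CaMK2a IP the change was -1.14 ± 0.40 and missed the threshold (adjusted p = 0.0502). It was called in 6 alternatives, among them DESeq2 (-1.14, adjusted p = 0.016) and the fit without CaMK2a KA IP replicate 1 (-1.72, adjusted p = 0.002). The PV IP call was lost without any 1 of 6 libraries, replicates 1 to 3 of either group (adjusted p = 0.083 to 0.13, values of -0.71 to -0.61).

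Hapln4, known as a brain link protein at perisomatic nets and inhibitory synapses, had no called KA effect in any fraction. It had 245, 267, 199 and 420 CPM in the PV IP after KA and 288, 317, 307 and 327 CPM after PBS, while the PV inputs had 113, 125, 91.9 and 113 CPM and 120, 135, 117 and 142 CPM. The PV IP was above its input by 1.40 ± 0.23 after KA (adjusted p = 0.0015) and by 1.30 ± 0.14 after PBS (adjusted p = 1.9e-05). In the CaMK2a line after PBS the IP was below the input by -0.49 ± 0.07 (111 ± 4.02 against 157 ± 15.2 CPM, adjusted p = 2.3e-05), and the enrichment differed between the lines by 1.73 ± 0.16 (adjusted p = 5.2e-07). The KA change was -0.16 ± 0.21 in the PV IP, -0.25 ± 0.14 in the PV input, 0.12 ± 0.11 in the CaMK2a IP and -0.16 ± 0.10 in the CaMK2a input, with adjusted p-values of 0.79, 0.3, 0.41 and 0.24, and -0.25 with an adjusted p = 0.044 in the PV input with the replicate block.

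**Figure D3:**
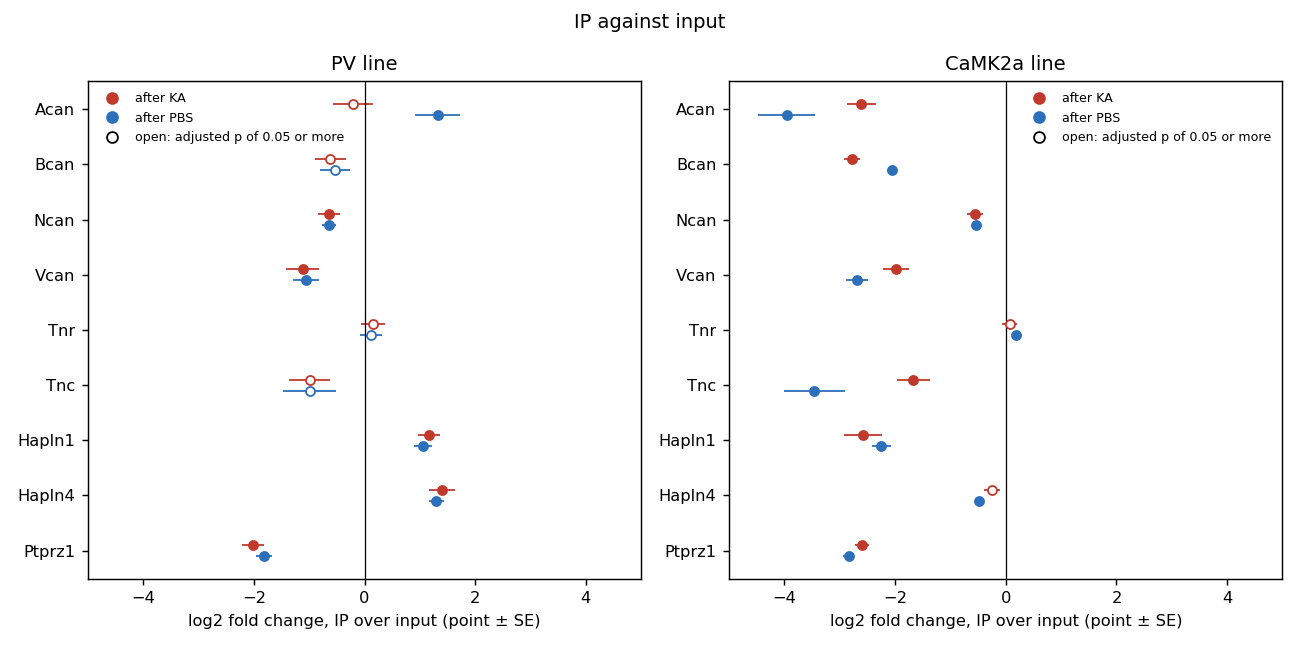
Log2 fold change of IP over input for each member, point ± SE, in the PV line (left) and the CaMK2a line (right), red after KA and blue after PBS, open where the adjusted p was 0.05 or more. Hapln1 and Hapln4 lie at 1.05 to 1.40 in the PV line after both treatments, whereas Acan lies at 1.32 after PBS and -0.21 after KA.

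Of the tenascins, Tnc rose with KA in all 4 fractions. Tenascin-C is a matrix glycoprotein of developing tissue, re-expressed after injury or strong activity. It had 11.7, 20.6, 10.1 and 6.45 CPM in the PV IP after KA against 2.12, 3.13, 1.93 and 4.03 CPM after PBS, and 18.1, 19, 29 and 33.7 CPM in the PV input against 6.97, 3.7, 4.79 and 7.44 CPM. In the CaMK2a IP it had 8.73, 3.89 and 8.27 CPM after KA against 0.0643, 1.41 and 0.389 CPM after PBS, and 24.8, 16.2 and 24.7 CPM in the input against 5.58, 7.43 and 3.96 CPM. KA and PBS libraries did not overlap in any of the 4 fractions. The rise was 2.08 ± 0.54 in the PV IP (adjusted p = 0.033), 2.08 ± 0.30 in the PV input (adjusted p = 6.6e-04), 3.72 ± 0.69 in the CaMK2a IP (adjusted p = 0.0027) and 1.93 ± 0.24 in the CaMK2a input (adjusted p = 5.7e-06). The CaMK2a PBS IP value rests on 16 counts in all 3 libraries, which gives a KA to PBS ratio of summed CPM of 14.4 (95% exact interval 8.65 to 25.8). The PV IP call was lost without any 1 of 6 libraries, replicates 1 to 3 of either group (adjusted p = 0.056 to 0.14, values of 1.73 to 2.16). The KA effects on Tnc were not shown to differ between the IPs of the lines (PV minus CaMK2a -1.52 ± 0.92, adjusted p = 0.91).

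Tnc was not above its input in the PV IP. Its IP level was 56.8% ± 39.3 of the input after KA and 52.4% ± 23.7 after PBS in the PV line, where astrocyte markers stood at 51.5% ± 11.3 and 56.3% ± 3.54. In the CaMK2a line it was 30.9% ± 6.08 after KA and 10% ± 8.95 after PBS, beside 20.8% ± 7.2 and 20.1% ± 4.4 for astrocyte markers. After PBS the IP was below the input by -3.46 ± 0.55 in the CaMK2a line (adjusted p = 3.6e-05), and the change in the PV line was -0.99 ± 0.48 (adjusted p = 0.17). The difference between lines was 2.25 ± 0.86 (adjusted p = 0.061, and 2.53 with adjusted p = 0.027 with the pool as a block). What astrocyte RNA contributed to Tnc in the IPs was not tested.

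Tnr moved the other way. Tenascin-R crosslinks lecticans in the net and is made largely by oligodendrocyte lineage cells and some neurons. It fell in the CaMK2a line, with 287, 284 and 335 CPM after KA against 407, 415 and 453 CPM after PBS in the IP (-0.49 ± 0.09, adjusted p = 0.0032) and 283 ± 26.5 against 380 ± 20.1 CPM in the input (-0.42 ± 0.09, adjusted p = 0.0019). In the PV line, Tnr had 673 ± 141 CPM after KA and 769 ± 202 CPM after PBS in the IP (-0.22 ± 0.21, adjusted p = 0.68) and 627 ± 173 and 725 ± 159 CPM in the input (-0.24 ± 0.22, adjusted p = 0.57, or -0.26 with adjusted p = 0.007 with the replicate block). Tnr stayed near its input in both IPs: after PBS it was 0.12 ± 0.20 in the PV line (adjusted p = 0.74) and 0.18 ± 0.06 in the CaMK2a line (adjusted p = 0.016). The second value was 0.06 (adjusted p = 0.41) with upper-quartile factors, and its call was also lost without replicate 3 of either CaMK2a PBS group (0.13 and 0.14, adjusted p = 0.095 and 0.065). Summed oligodendrocyte markers after PBS stood at 79.7% ± 5.52 of the input in the PV IP and 20.6% ± 6.88 in the CaMK2a IP. What RNA of those cells contributed to Tnr in the IPs was not tested.

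Ptprz1, which neural progenitors, astrocytes and oligodendrocyte precursors are known to express, was the member most depleted from the PV IP. It had 210, 135, 200 and 134 CPM in the PV IP after KA and 170, 125, 130 and 116 CPM after PBS, against inputs of 706 ± 80.7 and 489 ± 43.1 CPM. The IP was below the input by -2.01 ± 0.20 after KA (adjusted p = 4.0e-05) and by -1.82 ± 0.15 after PBS (adjusted p = 2.1e-06) in the PV line, and by -2.60 ± 0.13 (adjusted p = 4.5e-07) and -2.84 ± 0.10 (adjusted p = 1.2e-12) in the CaMK2a line. KA raised it by 0.50 ± 0.13 in the PV input (adjusted p = 0.025), 0.57 ± 0.14 in the CaMK2a IP (70.1 ± 3.87 against 47.7 ± 9.24 CPM, adjusted p = 0.012) and 0.30 ± 0.09 in the CaMK2a input (419 ± 28.7 against 342 ± 18.4 CPM, adjusted p = 0.019). Each of these 3 calls was lost without some single libraries. They were any of PV KA input replicates 1 to 3 or PV PBS input replicates 1 to 3, any of CaMK2a KA IP replicate 3 or PBS IP replicates 1 and 3, and any of the 3 CaMK2a PBS inputs (adjusted p = 0.0502 to 0.11). The PV IP change was 0.30 ± 0.21 (adjusted p = 0.53).

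**Figure D4:**
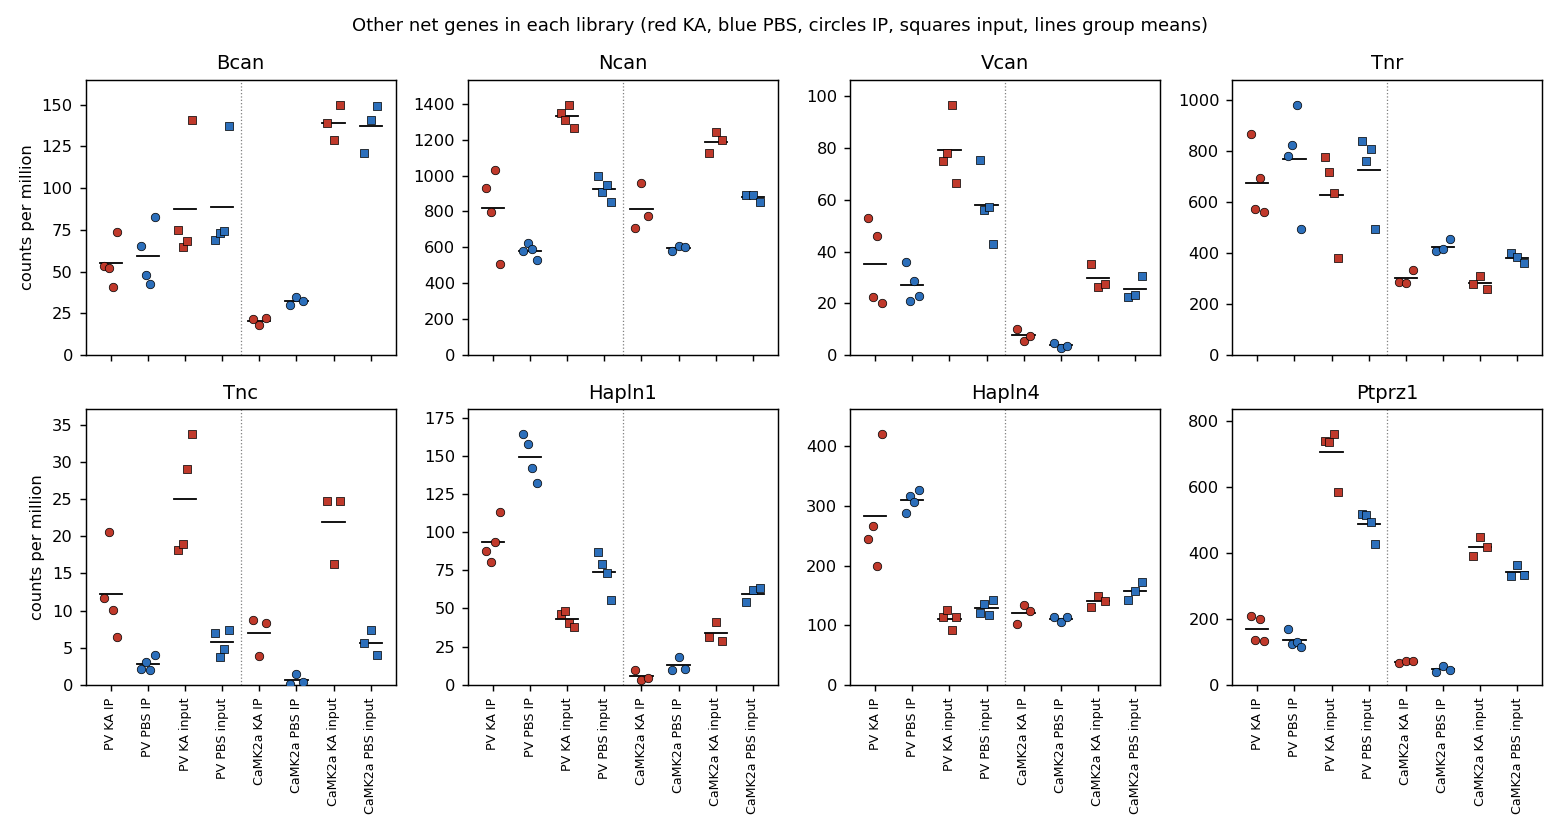
Levels of the other 8 members in every library, in CPM from 0, red for KA, blue for PBS, circles for IP, squares for input and lines for group means. Tnc is higher in every KA library than in any PBS library of its fraction, at 6.45 to 20.6 CPM against 1.93 to 4.03 CPM in the PV IP.

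Counted over the members, KA changed 3 of 9 in the PV IP, where 4.85% of all genes tested were called. The 2 higher members stood beside 4.05% of genes called higher, and the 1 lower beside 0.801% called lower, and the count was 1 without any 1 of replicates 1 to 3 of either group. In the PV input 5 of 9 were called (background 11.6%), 4 of them higher (8.21%) and 1 lower (3.36%), or 8 of 9 with the replicate block. In the CaMK2a IP 7 of 9 were called (35.1%), 5 higher (19.8%) and 2 lower (15.3%), and in the CaMK2a input 6 of 9 (35.0%), 4 higher (19.3%) and 2 lower (15.7%). The members' median change was 0.30, 0.42, 0.46 and 0.23 in these 4 fractions, beside -0.02, -0.02, 0.01 and -0.02 over all genes tested. Between PV IP and input, 5 of 9 members were called after KA (11.0%), 2 higher (6.85%) and 3 lower (4.11%), and 6 of 9 after PBS (18.5%), 3 higher (10.6%) and 3 lower (7.98%). Between CaMK2a IP and input, 7 of 9 were called after KA (50.1%), 0 higher (24.3%) and 7 lower (25.8%), and 9 of 9 after PBS (64.2%), 1 higher (32.6%) and 8 lower (31.6%). The count after KA in the PV line was 3 without PV KA input replicate 1, 2 or 3. For the enrichment after PBS in the PV minus the CaMK2a line, 6 of 9 members were called, all higher in PV, beside 27.5% of genes tested (13.3% called higher). None of the 9 was called in the KA effect of IP minus input in either line by edgeR without a block. An unadjusted p under 0.05 was reached by 1 in the PV line (Acan) and 3 in the CaMK2a line (Bcan, Vcan and Tnc). DESeq2 called 0 and 1 in these lines. With the pool as a block, edgeR called 1 in the CaMK2a line, Bcan. The KA comparisons of a line share no libraries between IP and input, but the pools are the same.

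**Figure D5:**
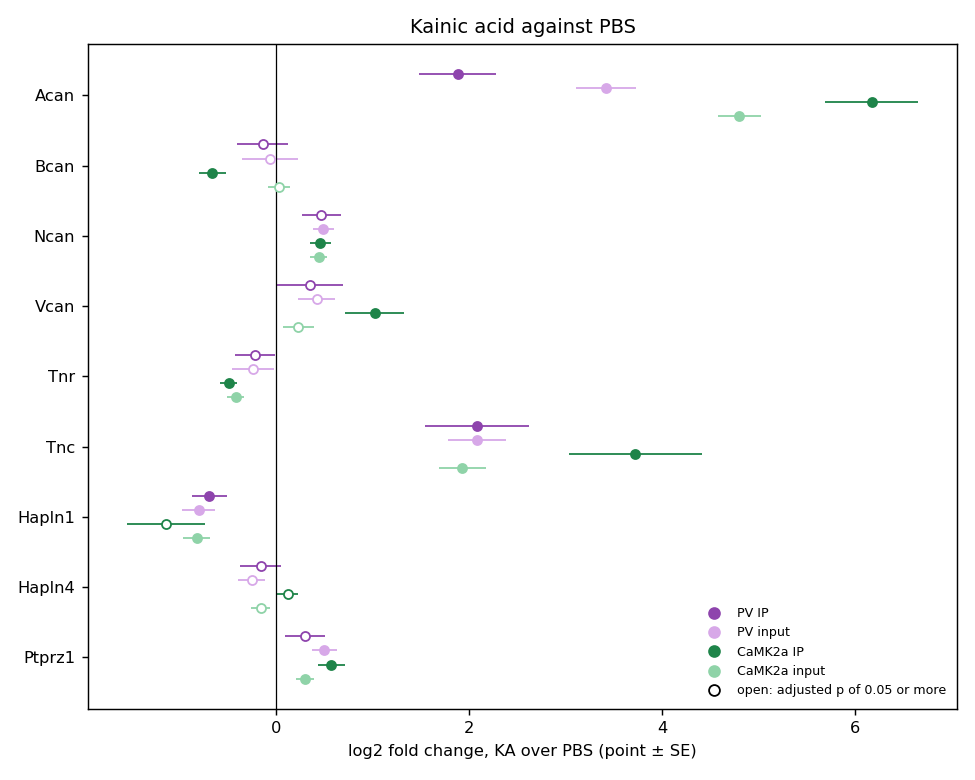
Log2 fold change of KA over PBS for each member in the 4 fractions, point ± SE, with filled points called at an adjusted p under 0.05. Acan spans 1.88 in the PV IP to 6.17 in the CaMK2a IP, Tnc lies at 1.93 to 3.72, and the other members lie between -1.14 and 1.02.

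Per length, in RPKM (CPM divided by the listed length in kilobases), the order of the members differed between fractions. In the PV IP after KA the highest levels were Ncan at 114 ± 31.4, Hapln4 at 79.1 ± 26.7 and Tnr at 53.2 ± 11.1, and after PBS Hapln4 at 86.7 ± 4.61, Ncan at 80.7 ± 5.52 and Tnr at 60.9 ± 16, where the first pair did not differ beyond their spread. In the PV input Ncan led at 185 ± 7.67 after KA and 129 ± 8.61 after PBS, followed by Ptprz1 at 86.8 ± 9.93 and 60.2 ± 5.3. Acan ranked seventh of 9 in the PV IP after KA (4.48 ± 2.12) and eighth after PBS (1.2 ± 0.478). In the CaMK2a fractions it ranked sixth after KA, at 2.86 ± 1.3 in the IP and 17.3 ± 2.9 in the input, and last after PBS, at 0.0401 ± 0.0269 and 0.637 ± 0.257. Even after KA its level per length stayed below that of Ncan in every group.

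Genes whose pattern over the 8 group means was most like that of Acan were ranked by Pearson correlation of log2(mean CPM + 1) among 10141 genes with a mean of at least 5 CPM in 1 group. The 5 highest were Ptpn23 (0.986), Lrrc32 (0.984), Sphk1 (0.979), Flna (0.977) and Ttbk1 (0.976). The correlation does not weigh the size of a change. In the CaMK2a IP after KA and PBS, Ptpn23 had 49.9 and 24.4 CPM, Ttbk1 172 and 117 and Flna 15.7 and 2.91, beside 22.2 and 0.311 for Acan. Lrrc32 had 10.5 and 3.33 CPM in the PV IP after KA and PBS, and 28.2 and 2.98 CPM in the CaMK2a input. Sphk1, which encodes a sphingosine kinase, had 15 and 3.28 CPM in the PV IP and 25.1 and 1.39 CPM in the CaMK2a input. Of the members, Tnc came highest, at 0.90 and rank 128, and Tnr lowest, at -0.22. These correlations describe 8 means that share 28 libraries and carry no test.

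The enzymes that build and sulfate chondroitin chains changed in both directions. Of 11 chain synthesis genes tested, KA changed none in the PV IP, 1 in the PV input (Csgalnact1, which starts chains, by -1.03 ± 0.21, adjusted p = 0.0074), 4 in the CaMK2a IP (2 up, 2 down) and 6 in the CaMK2a input (4 up, 2 down). Over all genes tested, 4.85%, 11.6%, 35.1% and 35.0% were called in these 4 fractions. The 1 of 11 in the PV input and the 4 of 11 in the CaMK2a IP are thus near the background. The chain polymerase gene Chsy3 rose by 0.82 ± 0.20 in the CaMK2a IP (adjusted p = 0.01) and 1.20 ± 0.23 in the CaMK2a input (adjusted p = 5.1e-04). The sulfotransferase gene Chst11, which sulfates the growing chondroitin chain, rose in all 4 fractions. It had 172 ± 45.2 CPM after KA and 71.4 ± 7.65 CPM after PBS in the PV IP (1.24 ± 0.22, adjusted p = 0.0019), and its rise was 1.05 ± 0.12, 1.00 ± 0.14 and 0.96 ± 0.09 in the PV input, CaMK2a IP and CaMK2a input. Chst12, another such sulfotransferase, fell by -1.87 ± 0.25 in the CaMK2a IP (adjusted p = 3.8e-04) and by -1.70 ± 0.26 in its input (adjusted p = 6.0e-05). Over the list of sulfation and epimerization genes, 1 of 7 (up), 2 of 7 (1 up), 4 of 7 (1 up) and 3 of 8 (1 up) were called in the PV IP, PV input, CaMK2a IP and CaMK2a input, beside the same shares of all genes, and the 3 of 8 in the CaMK2a input are near the background. List medians were -0.07, -0.11, -0.27 and -0.01.

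Most called changes of matrix proteases and their inhibitors after KA were rises, as were most calls over all genes. Of all calls, 83.5% were higher in the PV IP, 71% in the PV input, 56.4% in the CaMK2a IP and 55.2% in the CaMK2a input. Of the protease list, 3 of 21 genes rose in the PV IP, 5 of 20 in the PV input and 5 of 19 in the CaMK2a IP, with none lower, and 7 of 20 rose and 1 fell in the CaMK2a input. Of all genes tested, 4.05%, 8.21%, 19.8% and 19.3% were called higher in the PV IP, PV input, CaMK2a IP and CaMK2a input, so the 5 of 19 in the CaMK2a IP are near the background. Adamts1, a protease that cuts lecticans, had 141 ± 52 CPM after KA and 18.8 ± 4.54 CPM after PBS in the PV IP (2.88 ± 0.29, adjusted p = 5.3e-06), and its rise was 2.67 ± 0.17 in the PV input, 1.94 ± 0.18 in the CaMK2a IP and 2.31 ± 0.15 in the CaMK2a input. Plat, tissue plasminogen activator, rose by 2.09 ± 0.32 in the PV IP and 2.13 ± 0.18 in the CaMK2a IP, and Tmem2, a cell surface hyaluronidase, by 1.42 ± 0.32 and 1.99 ± 0.13. Of 8 inhibitor genes, 2 rose and 1 fell in the PV IP, 3 rose in each input and 2 rose in the CaMK2a IP, where 2 of 8 is likewise near the 19.8% of genes called higher. Timp1 had 5.89 ± 4.45 CPM in the PV IP after KA and 7.24 ± 4.25 CPM in the CaMK2a IP after KA, and no count in any of the PBS IP libraries. Median changes of the protease list were 0.13, 0.25, 0.07 and 0.46 in the PV IP, PV input, CaMK2a IP and CaMK2a input.

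Proteases went both ways in the PV IP after PBS, with 3 of 20 higher and 3 lower than in the input. There the gelatinase genes Mmp2 and Mmp9 were above the PV input by 4.98 ± 0.42 (adjusted p = 2.4e-06) and 4.44 ± 0.64 (adjusted p = 2.9e-04), and the lectican-cleaving Adamts15 by 2.63 ± 0.40 (adjusted p = 4.6e-04). Mmp9 had 27.7 ± 13.1 CPM in the PV IP and 1.34 ± 1.22 CPM in the PV input. In all, 3 of 20 proteases were higher and 3 lower in the PV IP, and 3 of 21 higher and 10 lower in the CaMK2a IP. Of all genes tested, 10.6% were called higher and 7.98% lower in the PV IP, and 32.6% higher and 31.6% lower in the CaMK2a IP, so the 3 of 20 higher in the PV IP are near the background. Mmp2 and Mmp9 were also above the input in the CaMK2a IP, by 2.20 ± 0.31 (adjusted p = 8.6e-06) and 2.23 ± 0.38 (adjusted p = 7.5e-05). The enrichment of Mmp2 was larger in the PV line by 2.72 ± 0.59 (adjusted p = 0.0023), while that of Mmp9 was not shown to differ (2.18 ± 0.88, adjusted p = 0.077). The enrichment of Adamts15 was larger in the PV than in the CaMK2a line by 4.18 ± 0.68 (adjusted p = 2.1e-04). Sema3a, a net-bound chemorepellent, was higher in the CaMK2a IP than in its input by 1.82 ± 0.19 (adjusted p = 2.7e-07), and its enrichment was lower in the PV line by -1.85 ± 0.43 (adjusted p = 0.0042).

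Of 14 receptors and partners of the net, KA raised 2 in the PV IP, 5 in the PV input, 5 in the CaMK2a IP and 8 in the CaMK2a input, with 1 lower in each CaMK2a fraction, beside 4.05%, 8.21%, 19.8% and 19.3% of all genes called higher. Nptx2, a synaptic pentraxin of excitatory inputs to PV interneurons, rose by 4.66 ± 0.30 in the PV IP (256 ± 21.5 against 9.99 ± 4.15 CPM, adjusted p = 5.3e-08), and by 4.29 ± 0.21, 4.03 ± 0.18 and 4.70 ± 0.17 in the PV input, CaMK2a IP and CaMK2a input. Cd44, a hyaluronan receptor, had 29.2 ± 10.1 CPM after KA and 3.71 ± 4.34 CPM after PBS in the PV IP (2.96 ± 0.74, adjusted p = 0.027). Its rise in the PV input was 3.14 ± 0.31, in the CaMK2a IP 1.62 ± 0.29 and in the CaMK2a input 3.32 ± 0.23. List medians were 0.43, 0.44, 0.75 and 0.59 in the same fractions. Of the hyaluronan synthases and the other link proteins, 1 of 4 genes tested was called in the CaMK2a input, Hapln2 (0.88 ± 0.33, adjusted p = 0.046). Of all genes, 35.0% were called there, so this count is not above the background. In the PV IP, PV input and CaMK2a IP the counts were 0 of 3, 0 of 2 and 0 of 1, beside 4.85%, 11.6% and 35.1% of all genes. Hapln3, the neighbour of Acan, was near the floor, with 1 count in the 4 PV IP libraries after KA and 35 counts in the 4 after PBS, and a mean of 1.35 CPM after KA and 1.3 CPM after PBS in the CaMK2a input.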

How the data were processed

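RNA of CA1 was measured in 28 libraries, amplified by single primer isothermal amplification and sequenced as 75 bp single reads per the labels' protocols. The submitters' processing notes name BWA, edgeR, mm10 and GRCm38 without versions. The authors deposited raw read counts per gene, a fold change (a linear ratio) and p-values for 6 comparisons, per the file headers, each split into a higher and a lower table. The parts were joined, and 189281 counts given in more than 1 table differed in 0 cases.

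Counts were tested with the quasi-likelihood test of edgeR 4.0.16 in R 4.3.3 (TMM scaling, low genes removed by filterByExpr at min.count 10, prior count 0.125, Benjamini-Hochberg threshold 0.05), each comparison fitted on its own groups over all genes. The SE is the log2 fold change divided by the root of F. Levels are CPM on 1 TMM scale. Ratios of summed counts have exact 95% intervals. The edgeR test was tested on simulated data for 4 of the comparisons. These counts were drawn independently for each library, so they cannot show the effect of shared lysates or of PV pool 4. Replicate libraries are separate pools of mice, so p-values measure the spread between pools, and no 2 replicates agreed within sampling noise (lowest chi-square per degree of freedom 3.57). In the PV groups this value was 64 to 144 for pairs with pool 4 and 6.7 to 39.6 among pools 1 to 3. Depth was 6.06 to 15.8 M counts per library. Alternatives were DESeq2 1.42.0, other scalings, filters and fits, the replicate block and each library left out in turn.

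Pairing was checked by the correlation of same-numbered libraries' deviations from their group means. IP and input of 1 number share a lysate and are paired by design. The main fits of IP against input, and of IP minus input, hold no term for this pairing. Fits with the pool as a block are alternatives. Between KA and PBS the correlations were 0.25 to 0.77 in PV inputs and 0.12 to 0.33 in CaMK2a inputs. They were 0.06 to 0.51 in PV IPs and -0.27 to 0.18 in CaMK2a IPs. The highest PV values, 0.77 and 0.51, were those of pool 4. Among PV pools 1 to 3, inputs had 0.25 to 0.29 for the same number and 0.18 to 0.33 for other numbers. In CaMK2a inputs, other numbers gave -0.28 to 0.18. Pairing of KA with PBS by number was thus not shown for PV pools 1 to 3. KA effects with the replicate block are given as alternatives only.

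The members, lists and tests were chosen with earlier results of these data known. Besides the members, at most 3 called genes per list and comparison with the largest absolute log2 fold change were named, and the 5 genes most like Acan. Hapln3, the marker Pvalb, and Mmp2 and Mmp9 outside the PV line were named outside this rule, after their values were seen.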

Additional observations from a re-analysis of the deposited data

Results flagged for a closer look

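In PV pool 4, Bcan had 141 CPM in the KA input and 137 CPM in the PBS input, each further from the other 3 pools of its group than Dixon's test allows at 95%. Ptprz1 had 585 CPM in the KA input of the same pool, below the other 3. Chance alone flags about 1 in 20 groups, and 36 PV groups by member were examined. Pool 4 also stood apart from the other PV pools over all genes in every PV group, so these flags are not independent.

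The KA effect on Acan differed between the IPs of the lines by -4.29 (PV minus CaMK2a, log2 scale). The enrichment of IP over input after PBS differed between the lines (PV minus CaMK2a) by 5.23 for Acan, 3.21 for Hapln1, 1.73 for Hapln4, 1.61 for Vcan, 1.45 for Bcan and 0.95 for Ptprz1. RNA amount and mice per pool differ between the lines, so they cannot be told apart from the Cre driver in these differences.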

How the results depend on the processing

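Over 2007 values of the members under alternatives, 1923 kept their side of the threshold, 60 lost the call and 24 gained it. In 85 the sign was the other one, none of them called in either fit, and no called value changed sign. With the replicate block, members called in the PV input KA effect were 8, and with all groups of the line in 1 model 3, against 5. In the KA effect of CaMK2a IP minus input, 1 member (Bcan) was called by DESeq2 and 1 with the replicate block, against 0. With each library left out in turn, the number of members called was 1 to 4 for KA in the PV IP, 3 to 5 in the PV input, 5 to 7 in the CaMK2a IP and 5 to 6 in the CaMK2a input. It was 3 to 5 after KA and 5 to 6 after PBS for PV IP against input, 7 and 8 to 9 for CaMK2a IP against input, 6 to 7 for the enrichment difference, and 0 to 1 for the KA effect in PV IP minus CaMK2a IP. Over all genes, KA called 539 in the PV IP, against 871 with DESeq2, 899 with the block and 1061 with all groups of the line, and 1289 in the PV input, against 3425 with the block, 817 with all groups and 2758 with PV replicates 1 to 3. For PV IP against input the block gave 2395 against 1227 after KA and 3370 against 2077 after PBS. For CaMK2a IP minus input DESeq2 gave 83 and the block 57 against 12, for PV IP minus input 7 and 9 (10 with replicates 1 to 3) against 3, for PV IP minus CaMK2a IP 43 and 17 (33 with all 8 groups, 70 with replicates 1 to 3) against 11, and for PV input minus CaMK2a input 4 and 7 (3 with replicates 1 to 3) against 0. Upper-quartile factors shifted the median of all genes by -0.10 in the CaMK2a IP KA effect, where the share of higher calls was 42.4%, and by -0.12 in CaMK2a IP against input. Ptprz1 in the CaMK2a input was 0.23 (adjusted p = 0.057) with these factors, and Ncan and Ptprz1 in the PV input were not called with all groups of the line (0.46 each, adjusted p = 0.11 and 0.12). The causes were not tested. Depth limits Acan and Tnc in the CaMK2a PBS IP, at 10 and 16 counts.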
